A study of Mus musculus with 8 samples.

Results

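*Msx1*, *Msx2*, *Lhx2*, *Lhx9* and *Lmo2* encode nuclear regulators of the outgrowing limb bud, and they were followed here in single cells of embryonic mouse forelimbs. The 5 genes, of 28001 features in each table, were chosen by their low level in sorted cells against whole limb at E11.5 in earlier results of the same libraries. That difference is therefore described below without a test. All 5 had UMIs (unique molecular identifiers, each marking 1 captured transcript) in all 8 libraries, and no member was lost to a filter on low values.

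The 8 droplet libraries came from C57BL/6J forelimbs. In 6 of them cells were sorted for tdTomato from embryos homozygous both for a CreERT2 allele at *Hic1* and for a Rosa26 LSL tdTomato reporter, after dams had been given 7.5 mg of tamoxifen at embryonic day 10. These were taken daily from E11.5 to E14.5 and at E16.5, the last from a proximal segment (distal stylopod, elbow and proximal zeugopod) and a distal segment (distal zeugopod and autopod). The other 2 libraries (whole limb 1 and whole limb 2) held lineage-negative cells of whole E11.5 limbs, described as both tdTomato+ and tdTomato-, and according to the methods of the paper they carried the same *Hic1* and reporter alleles. All groups thus share the modified *Hic1* locus and the tamoxifen, and the reporter marks only cells in which *Hic1* drove the recombinase around the time of dosing, with their descendants. Forelimbs of several embryos were pooled for a sorted library, and each sorted group is 1 library.

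Cells with at least 3000 UMIs and at most 10% mitochondrial UMIs were analysed, 53085 of 57469 barcodes, with 3165 (E11.5) to 11109 (E16.5 proximal) cells and median depths of 6788 (E13.5) to 18473 (E16.5 proximal) UMIs a library. By the methods the v2 kit served up to E13.5 and the v3 kit from E14.5 on, and the kit of the whole limb libraries is not stated apart from that. The mesenchymal label held, with 3 or more of 7 mesenchymal markers in 85.9% to 97.5% of the cells of each library. At E16.5 proximal, 9.69% of cells had 3 or more epithelial markers against 1.24% at E16.5 distal, and myogenic-marker cells made up 4.83% and 4.08% of whole limb 1 and 2. No tdTomato UMI was found in 96.5% and 96.4% of the cells of whole limb 1 and 2, nor in 12.2% of the sorted E11.5 cells. Any pair of libraries shared at most 54 barcodes.

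Msx proteins are homeodomain repressors that are induced by BMP signals and mark undifferentiated mesenchyme at the limb tip as well as the apical ectodermal ridge, the epithelium that drives outgrowth. *Lhx2* and *Lhx9* encode LIM-homeodomain factors of the distal mesenchyme that carry ridge FGF signals into the mesenchyme and act together with the dorsal factor Lmx1b. Lmo2 has LIM domains without a homeodomain and works as a bridge in complexes with Ldb1, best known from blood and endothelial development. LIM-homeodomain factors bind the same partner, Ldb1, so that LIM-only proteins can compete with them for it.

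On GRCm38, *Msx1* lies at chr5:37820485-37824583 (minus strand), *Msx2* at chr13:53466884-53473074 (minus), *Lhx2* at chr2:38339281-38369733 (plus), *Lhx9* at chr1:138825186-138848577 (minus) and *Lmo2* at chr2:103957986-103981878 (plus). *Lhx2* is overlapped on the other strand by *Gm27197* and *Gm13584*, and *Lmo2* by *4931422A03Rik*, while no gene overlaps a member on its own strand. RefSeq (GRCm38.p6) gave promoter entries for 4 of the 5 genes, all but *Lmo2*. The bases before the start were searched on both strands for TAATTA (a homeodomain core), ATCAAAG (TCF and LEF), GGCGCC (a SMAD element), CCAAT and TATAAA. Of 32851 promoter windows of 250 bases, these letters occurred in 4.84%, 3.21%, 9.59%, 33.8% and 12.4%. The *Msx1* and *Lhx2* windows are shown whole because no annotated exon of the gene overlaps them, with matches in capitals, CCAAT (or its complement) at 91 and 54 bases before the *Msx1* start and GGCGCC at 9 bases before the *Lhx2* start.
Msx1, chr5:37824586-37824835, minus strand: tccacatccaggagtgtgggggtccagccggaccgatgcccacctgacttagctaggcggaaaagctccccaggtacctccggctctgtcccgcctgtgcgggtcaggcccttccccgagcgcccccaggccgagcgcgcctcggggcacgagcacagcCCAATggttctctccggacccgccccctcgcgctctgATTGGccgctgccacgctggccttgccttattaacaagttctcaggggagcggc
Lhx2, chr2:38339031-38339280, plus strand: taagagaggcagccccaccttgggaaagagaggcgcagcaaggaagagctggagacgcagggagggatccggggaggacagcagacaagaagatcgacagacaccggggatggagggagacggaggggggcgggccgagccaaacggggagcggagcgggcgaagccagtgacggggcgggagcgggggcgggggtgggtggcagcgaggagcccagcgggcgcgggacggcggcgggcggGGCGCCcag
For *Msx2* and *Lhx9*, whose windows overlap annotated exons, only 30 bases around each match are given. Among the genes with a promoter entry, *Msx2* alone held TAATTA, the letters that Msx and LIM-homeodomain proteins can themselves bind. It lay 187 bases before the RefSeq start. *Msx2* also held CCAAT at 124 bases, and *Lhx9* held its complement at 24 bases before its RefSeq start. Both of these RefSeq starts lie inside the gene's GENCODE span.
Msx2, chr13:53472950-53472979, minus strand: tgactgctcctgTAATTAactcctaattta
Msx2, chr13:53472887-53472916, minus strand: ctccagggagagCCAATcggtggcgagcgt
Lhx9, chr1:138842451-138842480, minus strand: gtctcttaacaaATTGGacacagctccggc
ATCAAAG and TATAAA were found in none of these windows, and a second *Lhx2* window, inside the gene, held none of the 5. A match or its absence is a description of these letters in this window and says nothing about binding.

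All 5 genes were highest in whole limb. The *Msx1* level was 469 UMIs per 1000000 (CPM) in whole limb 1 and 385 in whole limb 2, against 37.7 CPM in sorted cells at E11.5. It was 11.9 CPM at E12.5, 4.69 CPM at E13.5 and 43.2 CPM at E14.5, and the E16.5 segments had 1.94 CPM (proximal) and 15.99 CPM (distal). Both whole limb libraries thus stood above every sorted library, and among the sorted ones E14.5 and E11.5 were highest and E16.5 proximal lowest. No neighbours in this order had overlapping Poisson intervals, which treat UMIs as independent although few cells may hold many. The E11.5 level was 23.4 CPM without likely doublets (defined below) and 25.0 CPM in cells thinned to 3000 UMIs. Both values lie outside its interval of 35.5 to 39.9 CPM. The kits of E11.5 (v2) and E14.5 (v3) also differ. *Msx2* went from 231 and 208 CPM in whole limb to 18.8, 5.41, 0.947, 7.66, 0.413 and 1.59 CPM in the sorted libraries, in the same sequence. E11.5 was its highest sorted library, with E14.5 next, and E16.5 proximal again the lowest, and no neighbouring intervals overlapped.

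The LIM-homeodomain genes had flatter courses in the sorted cells. *Lhx2* had 101 and 104 CPM in whole limb, then 8.51, 11.3, 8.48, 12.1, 3.01 and 8.14 CPM in the sorted libraries in the same sequence. The intervals of E12.5 and E14.5 overlapped, as did those of E11.5, E13.5 and E16.5 distal, which leaves E16.5 proximal as the low library. *Lhx9* had 206 and 211 CPM in whole limb and 17.8, 18.0, 13.3, 18.0, 1.15 and 6.62 CPM in sorted cells, where E11.5, E12.5 and E14.5 could not be ordered beyond counting error and both E16.5 segments lay below the rest. *Lmo2*, the LIM-only gene, had 73.3 and 61.4 CPM in whole limb and 5.65, 9.43, 5.84, 5.04, 5.20 and 3.97 CPM in sorted cells. E12.5 was highest and E16.5 distal lowest among its sorted levels, and the intervals of all the others overlapped.

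**Figure D1:**
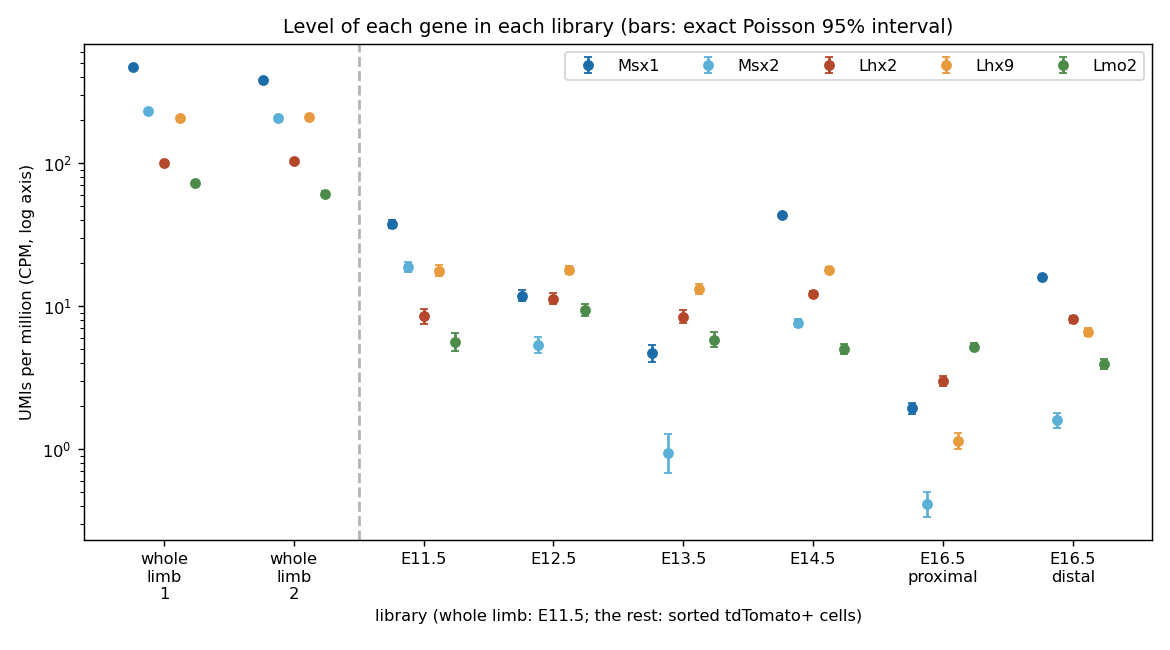
Level of each gene in each library, in UMIs per 1000000 on a log axis, with exact Poisson 95% intervals that cover counting error only. All 5 genes sit above 60 CPM in both whole limb libraries and below 44 CPM in every sorted library.

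At E11.5 the mean of the whole limb libraries was 11.3-fold (*Msx1*), 11.7-fold (*Msx2*), 12.1-fold (*Lhx2*), 11.7-fold (*Lhx9*) and 11.9-fold (*Lmo2*) the sorted level. These values chose the genes, and so their like size is no finding. Of 15124 genes tested over these 3 libraries with edgeR, 26.4% were lower and 27.1% higher in the sorted library at an adjusted p of 0.05. The whole limb libraries differed from each other by 1.22-fold for *Msx1*, 1.19-fold for *Lmo2* and 1.11-fold for *Msx2*, all higher in whole limb 1, and by 1.03-fold or less for *Lhx2* and *Lhx9*. With likely doublets left out (the 5% of cells with the most UMIs and cells called for 2 or more non-mesenchymal classes) the *Msx1* log2 ratio was 4.15 instead of 3.50.

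The same contrast is seen in the share of cells. With every cell thinned to 3000 UMIs, *Msx1* was detected in 50.3% and 46.8% of whole limb cells and in 3.73% (95% binomial interval 3.10 to 4.45%) of sorted cells at E11.5. *Msx2* was detected in 36.5% and 34.1% against 2.69% (2.15 to 3.31%), and *Lhx9* in 35.7% and 37.3% against 2.94% (2.38 to 3.59%). *Lhx2* had 21.3% and 20.5% against 2.02% (1.56 to 2.57%) and *Lmo2* 13.3% and 11.7% against 1.58% (1.17 to 2.08%). Without thinning the E11.5 sorted shares were 8.85%, 7.68%, 7.71%, 5.12% and 4.17% for *Msx1*, *Msx2*, *Lhx9*, *Lhx2* and *Lmo2*, and those of whole limb lay between 24.7% (*Lmo2*, whole limb 2) and 67.2% (*Msx1*, whole limb 1). For comparison, myogenic-marker cells of whole limb held *Lhx9* in 2.65% and 2.16% and *Lhx2* in 3.41% and 2.59% after the same thinning, at median depths of 13226.5 and 12187 UMIs against 8850.5 and 8593.5 for all cells of these libraries. The intervals of these shares (1.07 to 5.39% and 0.703 to 4.96% for *Lhx9*, 1.57 to 6.37% and 0.955 to 5.54% for *Lhx2*) overlapped those of the sorted cells. For *Msx1* the myogenic-marker cells had 29.5% and 29.3% and for *Msx2* 9.09% and 6.03%, with intervals above those of the sorted cells, and for *Lmo2* 4.17% (2.098 to 7.33%) and 3.88% (1.79 to 7.24%), of which the second overlapped that of the sorted cells. What free RNA adds to the sorted UMIs was not tested.

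Some sorted cells at E11.5 held many UMIs of the members. The top 1% of cells (32 cells) held 70.0% of the *Msx1* UMIs, 56.4% of those of *Msx2*, 50.4% of those of *Lhx9*, 45.5% of those of *Lhx2* and 43.8% of those of *Lmo2*. Few UMIs in all can by themselves raise this share, and so it is not set against whole limb. Among the genes here it was nonetheless largest for *Msx1*, which had the most UMIs. 1 sorted cell had 74 *Msx1* UMIs, more than the highest whole limb cell with 42. Counted on all UMIs of a cell, without thinning, 47 (1.48%) of 3165 sorted cells held 3 or more members, and these held 785 of 1186 *Msx1* UMIs and 245 of 560 *Lhx9* UMIs. After thinning, 13 sorted cells held 3 members and 6 held 4. In whole limb 50.9% and 49.2% of cells held 3 or more members without thinning, and with it 16.6% and 16.6% held 3, 8.77% and 7.27% held 4 and 1.34% and 1.13% held all 5.

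tdTomato was not used to pick these 47 cells. The members, however, were chosen by their low level in this tdTomato-sorted library, so the reporter is no independent check here. After thinning, the reporter was detected in 21.3% of them (95% interval 10.7 to 35.7%) and in 66.3% (64.6 to 67.9%) of the other 3118 sorted cells, and unthinned, 22 of the 47 and 365 of the 3118 had no tdTomato UMI. *Hoxa13* or *Hoxd13*, Hox genes of the autopod, was detected in 10.6% of the 47 and 1.57% of the others, and the 47 cells were deeper (median 15145 against 8955 UMIs). The members' levels were highest in the sorted cells without a reporter UMI. *Msx1* had 132 CPM in the 387 sorted cells without a tdTomato UMI, 51.4 in the 806 cells with 1 to 2 and 18.9 in the 1972 cells with 3 or more. *Lhx9* went from 49.3 to 25.1 to 10.6 CPM over the same groups, *Msx2* from 54.1 to 18.0 to 13.6, *Lhx2* from 18.1 to 12.03 to 5.92 and *Lmo2* from 11.5 to 6.39 to 4.52. The Poisson intervals of the first step overlapped for *Lhx2* and *Lmo2* and those of the last step for *Msx2* and *Lmo2*, and the thinned *Lmo2* share was 2.07%, 1.12% and 1.67% over these groups. Leaving out the cells with no reporter UMI gave a whole limb over sorted log2 ratio of 4.003 instead of 3.50 for *Msx1*, and between 3.76 (*Lmo2*) and 3.90 (*Msx2*) for the other 4 genes, a setting chosen after seeing the data. In whole limb no cell had 3 or more tdTomato UMIs. *Msx1* had 470 and 386 CPM in whole limb 1 and 2 cells without a tdTomato UMI, and 460 and 357 CPM in those with 1 to 2. The intervals of these groups overlapped for *Msx1*, *Lhx9* and *Lmo2* in both libraries. With 1 to 2 UMIs *Msx2* was lower in whole limb 2 (167 against 210 CPM) and *Lhx2* in whole limb 1 (82.1 against 102 CPM). Whether the sorted cells without a reporter UMI are unlabelled cells that passed the sort or labelled cells with little reporter RNA was not tested.

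**Figure D2:**
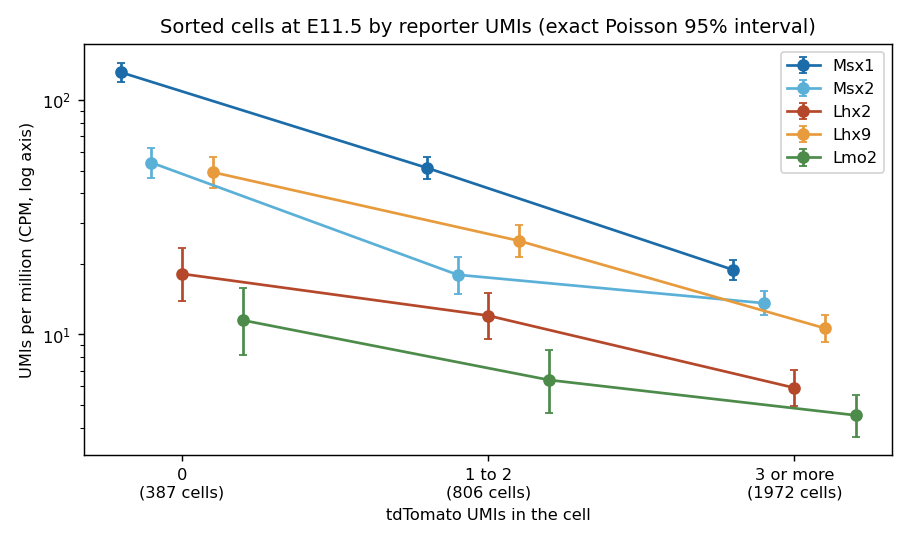
Level of the 5 genes in sorted E11.5 cells grouped by the tdTomato UMIs of the cell (387, 806 and 1972 cells), in UMIs per 1000000 on a log axis, with exact Poisson 95% intervals. Each gene is highest in cells with no reporter UMI, from 132 CPM for *Msx1* to 11.5 CPM for *Lmo2*, where the interval overlaps that of cells with 1 to 2 for *Lhx2* and *Lmo2*. Those of the groups with 1 to 2 and with 3 or more overlap for *Msx2* and *Lmo2*. The genes were chosen by their low level in this sorted library, so the reporter is no independent check.

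Within whole limb, the members split by how closely they went with genes of limb position. *Hoxa13* and *Hoxd13* mark the prospective hand, and *Meis1* and *Meis2* the upper arm. *Lmo2* was detected in 35.6% and 33.0% of cells with *Hoxa13* or *Hoxd13* and without *Meis1* or *Meis2* (called Hox13 cells, 1071 and 1024 in whole limb 1 and 2), in 10.1% and 8.72% of cells with neither pair, and in 1.72% and 2.14% of cells with *Meis1* or *Meis2* alone (Meis cells, 1220 and 1353). *Lhx2* had 33.1% and 32.7%, then 22.0% and 21.6%, then 9.34% and 9.31% in these groups. *Msx1* had 73.2% and 68.4%, then 50.1% and 45.8%, then 31.2% and 32.8%. The binomial intervals of the 3 groups did not overlap for any of these 3 genes in either library.

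*Msx2* and *Lhx9* showed less of this gradient. *Msx2* was detected in 47.8% and 44.3% of the Hox13 cells, but in 33.5% and 31.1% of cells with neither and 34.1% and 33.3% of the Meis cells, whose intervals overlapped. *Lhx9* had 39.7% and 40.7%, 35.8% and 37.3%, and 32.3% and 35.8%. In whole limb 2 the *Lhx9* interval of the Meis cells (33.3 to 38.5%) overlapped that of the Hox13 cells (37.7 to 43.8%), and in whole limb 1 it did not. *Shox2*, a gene of the middle and upper limb segments, went the other way for all 5 genes. *Lmo2* was detected in 5.55% and 3.81% of *Shox2* cells against 19.6% and 18.2% of the rest, and *Lhx9* in 28.1% and 30.2% against 41.8% and 43.3%.

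**Figure D3:**
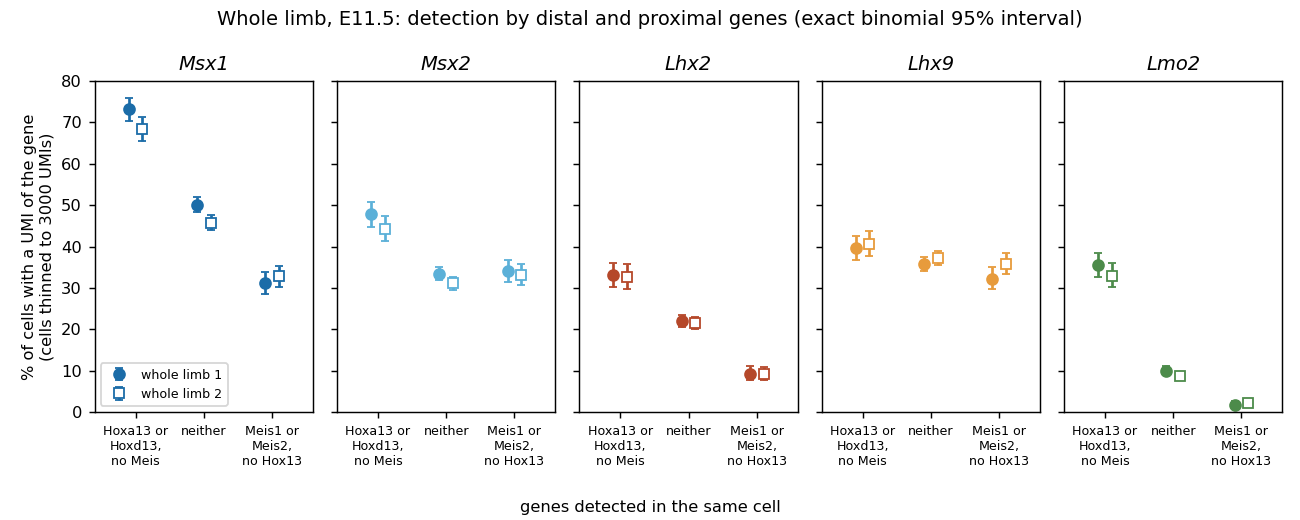
Percent of whole limb cells with a UMI of each gene, for cells with *Hoxa13* or *Hoxd13* without Meis genes, with neither, and with *Meis1* or *Meis2* without these Hox genes, all thinned to 3000 UMIs, with exact binomial 95% intervals. *Lmo2* falls from 35.6% to 1.72% in whole limb 1, whereas *Lhx9* goes from 39.7% to 32.3%.

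At E11.5 Hox13 cells made up 1.52% (48 cells) of the sorted library, against 19.6% and 18.02% of whole limb 1 and 2. In cells with neither pair, *Msx1* had 3.73% in the sorted library against 50.1% and 45.8%, and *Lmo2* 1.61% against 10.1% and 8.72%. In Meis cells *Msx1* had 2.96% against 31.2% and 32.8%, and *Lmo2* 1.18% against 1.72% and 2.14%, with overlapping intervals for *Lmo2* alone. What part of the whole limb contrast stems from position was not tested. Of the sorted libraries, E14.5 held the most Hox13 cells after E16.5 distal. At E14.5, *Msx1* was detected in 21.4% of 1352 Hox13 cells, 3.38% of cells with neither and 1.31% of 613 Meis cells. *Lhx9* had 10.2%, 3.49% and 1.63%, *Lhx2* 7.47%, 2.18% and 0.816%, and *Msx2* 7.10%, 1.05% and 0.653%. *Lmo2* had 1.48%, 1.38% and 0.489%, with overlapping intervals in the Hox13 cells and those with neither. At E16.5 distal *Msx1* had 8.06% of 2108 Hox13 cells and 3.09% of cells with neither, and *Lhx9* 3.32% and 1.37%. *Lmo2* had 1.80% (1.28 to 2.47%) and 0.859% (0.642 to 1.12%) there, *Lhx2* 2.85% and 1.80%, and *Msx2* 0.949% and 0.297%. For each gene the intervals of these groups did not overlap at E16.5 distal. At E13.5 *Msx1* had 3.85% (2.17 to 6.26%) of 390 Hox13 cells and 0.660% (0.460 to 0.916%) of cells with neither, whereas *Lhx9* had 3.33% and 3.45%, with overlapping intervals. At E12.5 *Lmo2* had 7.19% (3.64 to 12.5%) of 153 Hox13 cells and 2.92% (2.43 to 3.49%) of cells with neither. *Lhx2* had 7.19% and 2.70% there and *Msx2* 3.92% and 0.835%, likewise without overlap of the intervals. *Lhx9* had 3.27% and 4.17% and *Msx1* 4.58% and 2.48%, with overlapping intervals. At E16.5 proximal 0 of 65 Hox13 cells held an *Msx1* UMI after thinning, which by the limit of 3 counts over the number of cells allows up to 4.62%. Counted on all UMIs of a cell, 375 cells of E14.5 held 3 or more members (after thinning 51 held 3 and 4 held 4), and 60.5% of the 375 had *Hoxa13* or *Hoxd13* against 14.4% of the rest.

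Cells of whole limb held pairs of the genes together more often than the product of their single shares. Over the 10 pairs the observed number was between 1.26 and 1.76 times the expected in whole limb 1 and between 1.21 and 1.86 times in whole limb 2. The ratio was 1.76 and 1.86 for *Lhx2* with *Lmo2* and 1.26 and 1.21 for *Lhx9* with *Lmo2*. The pairs are not ranked by it, since it cannot exceed the inverse of the larger single share. *Lmo2* was found in 23.5% and 21.6% of *Lhx2* cells against 10.6% and 9.08% of cells without *Lhx2*, but in 16.7% and 14.1% of *Lhx9* cells against 11.4% and 10.2% of cells without *Lhx9*. *Lhx9* was detected in 53.6% and 58.0% of *Lhx2* cells against 30.8% and 32.0% of the rest, and *Msx2* in 50.7% and 47.7% of *Msx1* cells against 22.2% and 22.0%. All 5 genes were detected at once in 1.34% and 1.13% of cells and none in 28.3% and 29.4%. Without thinning the median ratio of the 10 pairs was 1.36 instead of 1.49. How much of the ratios stems from differences in RNA content between cells, beyond the thinning, was not tested.

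At E14.5 the numbers of cells were small. The ratio cannot exceed the inverse of the larger single share, which leaves more room where detection is low, and so these ratios are not set against those of whole limb. *Msx1* and *Msx2* shared 89 cells where 10.54 would follow from the single shares (8.44 times), *Msx2* and *Lhx9* 41 cells against 7.46 (5.50 times), and *Msx1* and *Lhx9* 112 against 23.3 (4.80 times). *Lhx2* shared 60 cells with *Msx1* (3.82 times) and 33 with *Lhx9* (2.97 times). *Lmo2* shared 9 cells with *Msx1* against an expected 6.97, 2 with *Lhx2* against 3.31 and 5 with *Lhx9* against 4.93. At E16.5 distal *Msx1* shared 24 cells with *Lhx9* (3.52 times), 13 with *Lhx2* (1.73 times) and 9 with *Lmo2* (2.22 times), and *Lmo2* shared 1 with *Lhx2* against an expected 1.94.

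**Figure D4:**
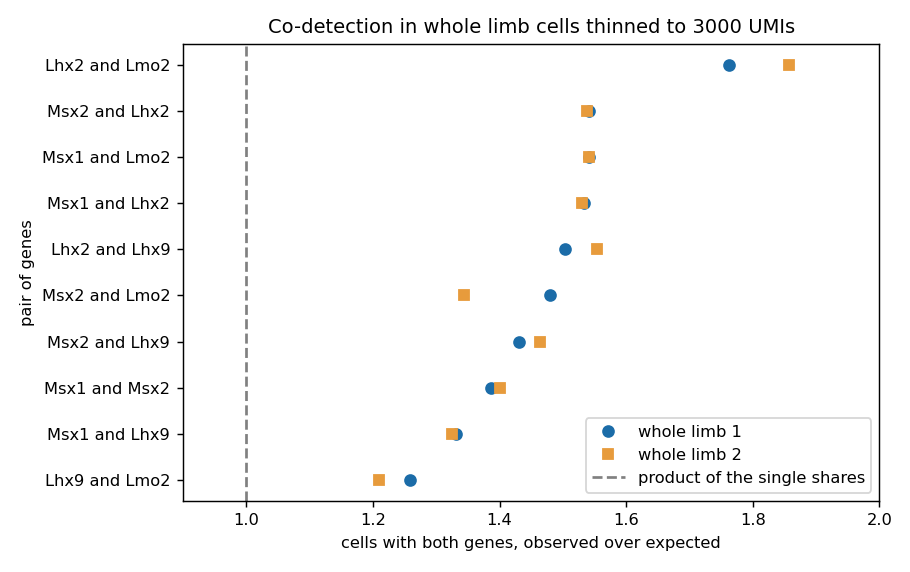
Number of whole limb cells with both genes of a pair over the number expected from the product of their single shares, for the 10 pairs in whole limb 1 and whole limb 2, cells thinned to 3000 UMIs. All points lie above 1, from 1.21 for *Lhx9* and *Lmo2* to 1.86 for *Lhx2* and *Lmo2*, both in whole limb 2. Pairs are ordered by whole limb 1 for display, and the ratio is limited by the larger single share.

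By cell class, called from 3 or more fixed markers that include no member, the Msx genes were high also in epithelial-marker cells. In the 16 and 20 epithelial-marker cells of whole limb 1 and 2, *Msx2* had 303 and 395 CPM and *Msx1* 225 and 353 CPM, whereas *Lhx2* had 0 UMIs, and no such cell held it after thinning, a count of 0 that allows up to 18.8% and 15.0% (3 counts over the number of cells). Myogenic-marker cells had 173 and 157 CPM of *Msx1* but 17.8 and 12.5 CPM of *Lhx9* and 38.8 and 31.8 CPM of *Msx2*. Endothelial-marker cells had 68.6 and 68.5 CPM of *Msx1* and 28.9 and 31.1 CPM of *Msx2*. Mesenchymal-marker cells had 498 and 404 CPM of *Msx1* and 245 and 220 CPM of *Msx2*. *Lmo2* was highest in the 22 and 28 endothelial-marker cells, with 300 and 395 CPM, against 75.6 and 62.1 CPM in mesenchymal-marker cells. These endothelial-marker cells held 83 of 3762 and 127 of 3149 *Lmo2* UMIs of their libraries, although cells with CD31, a surface protein of endothelium, were gated out in the sort.

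Among mesenchymal cells of whole limb, those with chondrocyte markers (830 and 932 cells) had less *Msx1* (230 and 201 CPM) than all mesenchymal-marker cells (498 and 404 CPM). *Lmo2* was likewise at 35.5 and 28.3 CPM against 75.6 and 62.1, *Msx2* at 142 and 119 against 245 and 220, and *Lhx2* at 61.5 and 70.3 against 108 and 111 CPM. *Lhx9* was closest to its mesenchymal level in these cells, with 175 and 212 CPM against 220 and 224 CPM. Cells with dermal fibroblast markers, which hold genes such as *Lef1* and *Irx1*, had the most *Msx1* (660 and 518 CPM) and *Lmo2* (104 and 75.5 CPM), at depths of 12526 and 11499 UMIs against 9043 and 8735 in mesenchymal-marker cells. The classes overlap, since 1 cell may hold markers of several.

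Over the earlier stages the Msx genes, but not the LIM genes, were several-fold lower at the later day. From E11.5 to E13.5, within the v2 kit, *Msx2* was 19.8-fold lower (log2 ratio -4.31, 95% conditional binomial interval -4.79 to -3.86) and *Msx1* 8.02-fold lower (-3.00, -3.22 to -2.79). The top 1% of cells held 70.0% of the E11.5 *Msx1* UMIs, and in cells with 3 or more tdTomato UMIs *Msx1* had 18.9 CPM at E11.5 and 4.09 CPM at E13.5, while its thinned share was 3.73% and 0.833% of all cells. *Lhx9* had a log2 ratio of -0.42 (-0.59 to -0.25), *Lhx2* -0.00 (-0.23 to 0.23) and *Lmo2* 0.05 (-0.23 to 0.33). Thus 2 of the 5 genes were at least 2-fold lower, where 4.91% of 13269 genes with at least 1 CPM in the higher library were, and 0 of 5 were at least 2-fold higher, where 10.3% of genes were. The *Lhx9* value depended on the cells taken, being 0.04 with cells thinned to 3000 UMIs. The Msx genes were lower at each day than at the day before, with *Msx1* log2 ratios of -1.67 from E11.5 to E12.5 and -1.34 from E12.5 to E13.5 and *Msx2* ratios of -1.80 and -2.51, while *Lmo2* had ratios of 0.74 and -0.69. With likely doublets left out the E13.5 over E11.5 value of *Msx1* was -2.53. By the methods, E11.5 and E12.5 limbs were digested with Dispase, and E13.5 limbs with collagenase and pronase. Stage and digestion therefore cannot be told apart in any ratio of E13.5 to an earlier day. With 1 library a stage none of this has a replicate check.

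Between E13.5 (v2 kit) and E14.5 (v3 kit) *Msx1* went from 4.69 to 43.2 CPM and *Msx2* from 0.947 to 7.66 CPM, beside 8.48 and 12.1 for *Lhx2*, 13.3 and 18.0 for *Lhx9* and 5.84 and 5.04 for *Lmo2*. Stage and kit cannot be told apart in this step. The *Msx1* share of thinned cells went from 0.833% to 6.28%, and the E14.5 cells with 3 or more members held 53.0% of its UMIs there.

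From E14.5 to E16.5 proximal, within the v3 kit, 4 of the genes were lower and *Lmo2* was not. *Msx1* was 22.3-fold lower (log2 ratio -4.48, -4.62 to -4.34), *Msx2* 18.6-fold (-4.21, -4.53 to -3.91), *Lhx9* 15.7-fold (-3.97, -4.16 to -3.79) and *Lhx2* 4.03-fold (-2.01, -2.14 to -1.88). *Lmo2* had a log2 ratio of 0.04 (-0.09 to 0.18). Of 13596 genes, 10.5% were at least 2-fold lower at E16.5 proximal and 9.39% at least 2-fold higher, against 4 and 0 of the 5 members. The E14.5 library held whole forelimbs and the E16.5 proximal one a segment without the hand, so stage and segment cannot be told apart here. The E16.5 distal over E14.5 log2 ratios were nearer to 0 for 4 genes, with -1.43 (*Msx1*), -2.26 (*Msx2*), -0.58 (*Lhx2*) and -1.44 (*Lhx9*), and farther from 0 for *Lmo2* (-0.35, -0.51 to -0.19).

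The E16.5 segments separated 4 of the genes from *Lmo2*. *Msx1* had 15.99 CPM distally and 1.94 proximally (log2 ratio 3.05, 95% interval 2.90 to 3.19), *Lhx9* 6.62 and 1.15 CPM (2.53, 2.34 to 2.73), *Msx2* 1.59 and 0.413 CPM (1.95, 1.61 to 2.30) and *Lhx2* 8.14 and 3.01 CPM (1.43, 1.30 to 1.57). *Lmo2* was lower distally, with 3.97 and 5.20 CPM (-0.39, -0.53 to -0.25). Thus 4 of the 5 were at least 2-fold higher distally and 0 at least 2-fold lower, where 7.58% and 6.66% of 13485 genes were. Thinned, *Msx1* was found in 4.32% of distal and 0.639% of proximal cells and *Lhx9* in 1.87% and 0.378%. The distal matrix was made with Cell Ranger 6.0.1 and the proximal one with 3.0.2. With 1 library a segment, segment and processing cannot be told apart.

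Part of the *Msx2* level at E16.5 proximal came from epithelial-marker cells, which made up 9.69% of that library and held 58 of its 97 *Msx2* UMIs. Without cells of the 6 non-mesenchymal classes the distal over proximal log2 ratio of *Msx2* was 2.98 instead of 1.95, and its E16.5 proximal over E14.5 ratio was -5.27 instead of -4.21. *Lhx2* was also found in these cells, with 4.85 CPM proximally and 18.3 CPM distally, and in perineurial-marker cells, with 9.56 and 21.8 CPM. At E16.5 proximal the perineurial-marker cells were near the epithelial-marker cells in *Msx2*, with 1.80 and 1.47 CPM, against 0.270 CPM in mesenchymal-marker cells. Their *Msx1* levels were 0.549 and 0.431 CPM, against 1.88 CPM. A cell may hold markers of both classes, and their overlap was not tested. The 47 endothelial-marker cells of E16.5 proximal held 67 of 1222 *Lmo2* UMIs.

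The distal excess of 4 genes was present within mesenchymal classes. In chondrocyte-marker cells (806 distal and 2313 proximal) *Lhx9* had 19.5 against 1.54 CPM (log2 ratio 3.67), *Msx2* 4.42 against 0.585 CPM (2.92), *Msx1* 27.7 against 4.15 CPM (2.74) and *Lhx2* 9.57 against 2.67 CPM (1.84). In tenocyte-marker cells *Msx1* had 21.6 against 2.02 CPM (3.42) and *Lhx9* 12.5 against 3.32 CPM (1.91), and in fibroblast-marker cells *Msx1* had 8.26 against 1.21 CPM (2.77) and *Lhx2* 7.28 against 1.75 CPM (2.05). Dermal fibroblast-marker cells had log2 ratios of 0.55 (-0.04 to 1.16) for *Msx2* and 0.64 (0.39 to 0.89) for *Lhx2*, beside one of 3.27 for *Lhx9*. In perineurial-marker cells, whose overlap with epithelial-marker cells was not tested, *Msx2* had a log2 ratio of -0.34 with an interval that held 0. *Lmo2* was higher proximally in fibroblast-marker cells, with 7.35 against 3.09 CPM (-1.25), in pericyte-marker cells, with 6.76 against 1.67 CPM (-2.02), and in chondrocyte-marker cells, with 2.36 against 0.798 CPM (-1.56). Its interval held 0 in tenocyte- and dermal fibroblast-marker cells (-0.34 and -0.62) and in perineurial-marker cells, where it was 1.23 (-0.27 to 2.56). Of the 1222 proximal *Lmo2* UMIs, 780 lay in fibroblast-marker cells, which were 4745 of the 11109 proximal cells. Their level of 7.35 CPM stood beside 5.20 CPM in the whole proximal library.

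**Figure D5:**
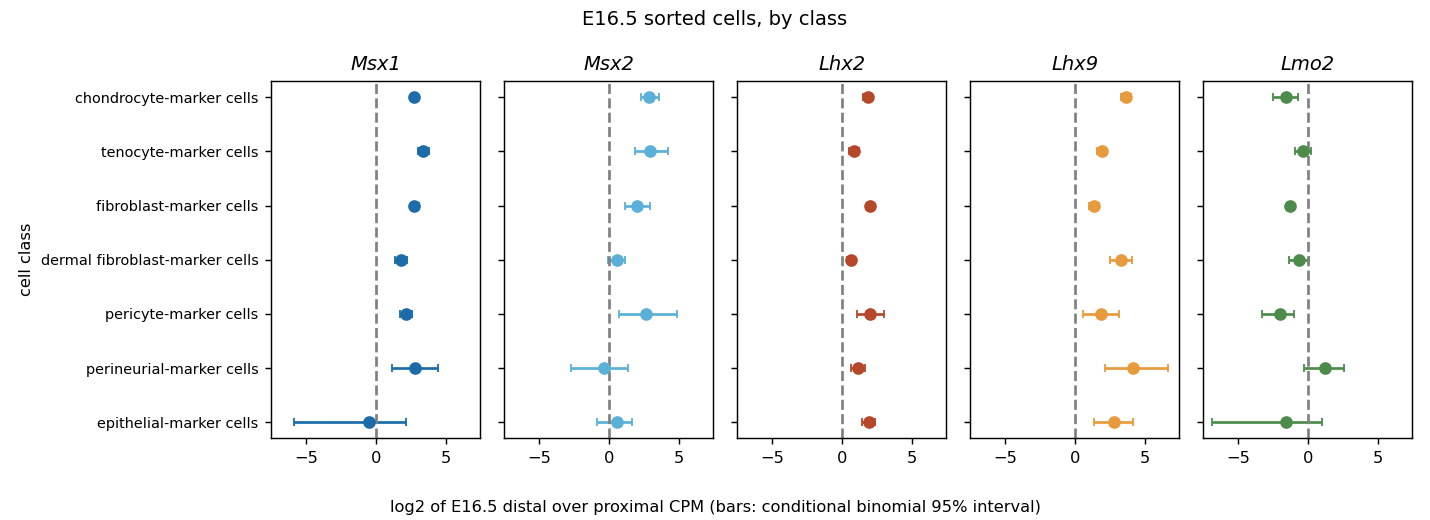
Log2 ratio of the level at E16.5 distal over E16.5 proximal for each gene within 7 marker-defined cell classes, with conditional binomial 95% intervals (counting error only). *Msx1*, *Lhx2* and *Lhx9* lie above 0 in chondrocyte-, tenocyte-, fibroblast-, dermal fibroblast-, pericyte- and perineurial-marker cells. *Lmo2* lies below 0 in fibroblast-, pericyte- and chondrocyte-marker cells. Perineurial-marker cells may include epithelial ones.

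Genes with the most similar pattern over the 8 libraries were named by the root mean square difference of centred log2(CPM + 1) profiles among 7936 genes with at least 20 CPM in some library. *Msx1* and *Msx2* were each other's nearest (0.66). *Lhx2* was nearest to *Zic2*, a zinc finger gene (0.28), then *Lmo2* (0.49), the connexin gene *Gja3* (0.54) and *Mogat2* (0.56). *Lhx9* was nearest to *Zic2* (0.57), *Lhx2* (0.64), *Zic5* (0.74) and *Mogat2* (0.79), and *Lmo2* to *Gja3* (0.43), *Dlx2* (0.48), *Lhx2* (0.49) and *Mogat2* (0.56). For *Msx1* the next were *Lhx9* (0.89), *Pf4* (1.10) and *Lhx2* (1.11), and for *Msx2* *Pf4* (0.89), *Lhx9* (0.99) and *Zic5* (1.08). *Pf4*, a platelet and macrophage chemokine gene, had 44.8 and 52.4 CPM in whole limb and 6.57 CPM in sorted cells at E11.5. These profiles include the whole limb against sorted difference that chose the members.

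Over single whole limb cells the likeness was the mean over both libraries of Pearson's r of log thinned counts, among 6394 genes, given as a description because the cells share their library and most counts are 0. *Msx1* was nearest to *Msx2* (r = 0.33), *Lhx2* (0.31), the BMP pseudoreceptor gene *Bambi* (0.30) and the mesenchymal homeobox gene *Prrx2* (0.29). *Msx2* was nearest to *Msx1*, *Prrx2* (0.28), *Lhx9* (0.28) and *Bambi* (0.20), *Lhx2* to *Msx1*, *Bambi* (0.23), *Prrx2* (0.22) and *Lhx9* (0.22), and *Lhx9* to *Msx2*, *Msx1* (0.27), *Asb4* (0.25) and *Prrx2* (0.25). *Lmo2* had other nearest genes, *Hoxd13* (0.31), *Tfap2b* (0.24), *Pmaip1* (0.24) and *Cdc42ep3* (0.22). Of the members, *Msx1* came at rank 5 for it (0.21), *Lhx2* at rank 12 (0.15), *Msx2* at rank 36 (0.10) and *Lhx9* at rank 413 (0.04).

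The partners and pathways of these regulators were examined as fixed lists in sorted against whole limb cells at E11.5, with cells of 6 non-mesenchymal classes left out. The test was edgeR's quasi-likelihood test with Benjamini-Hochberg adjustment over all 15124 genes, in which the lone sorted library is assumed to vary like the whole limb libraries and 1 residual degree of freedom remains. Nothing in the labels says that the whole limb libraries came from separate litters, so that the spread between them may be technical. The genes named are those with the largest fold changes among called genes of at least 10 CPM, and *Ldb1*, *Lmo4*, *Isl1*, *Lhx1* and the lower *Dlx* and *Alx* genes were added after their values were seen. Adjusted p-values of the called genes depended strongly on the filter on low counts, and so they are no measure of certainty. The median log2 fold change (sorted over whole limb) of all tested genes was 0.01.

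Among 10 LIM complex partners, 4 were lower and 2 higher in sorted cells, with a median of -0.03, beside 26.4% of all genes tested lower and 27.1% higher. *Lmo1*, another LIM-only gene, fell from 60.0 and 56.8 CPM in whole limb to 5.74 CPM (log2 fold change -3.52 ± 0.15 SE). *Ssbp2* and *Ssbp3*, which stabilise the Ldb1 complex, fell by 0.58 and 0.41 on the log2 scale, and *Cited2* rose by 0.47 on it. *Ldb1* itself, which the LIM proteins share, had 61.4 and 55.9 CPM in whole limb and 74.9 CPM in sorted cells (0.18 ± 0.10, adjusted p = 0.122), and *Lmo4* 249, 230 and 284 CPM (0.07 ± 0.10, adjusted p = 0.566), and so neither passed the test. *Ssbp3* did not pass edgeR's test without a filter on low counts (adjusted p = 0.0848) and passed with DESeq2 (adjusted p = 0.00125).

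Of 10 other LIM-homeodomain genes, 4 passed the filter on low counts, and their median was -0.16. *Lmx1b*, the dorsal determinant, rose from 15.7 and 16.3 CPM to 34.1 CPM (log2 fold change 0.91 ± 0.12). *Isl1* and *Lhx1* fell at levels under 3 CPM (-1.02 and -2.29). The call of *Isl1* was lost with DESeq2 (adjusted p = 0.0682, and 0.0436 in edgeR without a filter on low counts) and that of *Lhx1* in edgeR without the filter (adjusted p = 0.123, and 0.0136 with DESeq2).

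Of 7 tested distal-less and paired-type genes 6 were lower and 0 higher, with a median of -2.20, beside 26.4% and 27.1% of all genes tested. DESeq2 called 4 of these 7 lower, beside 2836 of all 15124 genes. Without a filter on low counts edgeR called 4 of 10 lower, beside 1856 of all 20190. With all filtered cells summed 6 of 8 were lower and 1 higher, beside 3999 and 4076 of all 15341. *Dlx2* fell from 22.4 and 24.2 CPM to 1.34 CPM (-4.29 ± 0.20). *Dlx5*, a gene of ridge and distal mesenchyme, fell from 38.0 and 39.9 CPM to 5.32 CPM (-3.05 ± 0.16). The other lower genes, *Dlx3*, *Dlx6*, *Alx1* and *Alx4*, had at most 10 CPM in any of the 3 libraries, and of these *Alx1* and *Dlx3* were called neither by DESeq2 (adjusted p = 0.209 and 0.163) nor by edgeR without a filter on low counts (adjusted p = 0.182 and 0.0889).

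Ridge FGF signalling went in both directions, with 5 of 15 genes lower and 8 higher (median 0.33), where 26.4% and 27.1% of all genes tested were. DESeq2 called 6 of the 15 higher, beside 2047 of all 15124 genes. Without a filter on low counts edgeR called 4 of 16 higher, beside 1696 of all 20190. Feedback inhibitors of the pathway had no list or test of their own. Among them *Dusp6*, named after its values were seen, was not called (-0.15 ± 0.10). *Spry2* and *Spry1* rose from 41.6 and 33.2 to 157 CPM (1.90 ± 0.09) and from 15.3 and 16.4 to 43.2 CPM (1.27 ± 0.12), and the ligand gene *Fgf9* from 3.98 and 4.03 to 16.8 CPM (1.89 ± 0.15). *Spry4*, *Il17rd*, *Spred1* and *Spred2*, inhibitors named after their values were seen, fell by 0.83, 0.66, 0.49 and 0.41 on the log2 scale, and *Spred2* did not pass without a filter on low counts (adjusted p = 0.0834, and 0.0191 with DESeq2). *Fgf10*, the mesenchymal ligand that maintains the ridge, fell from 15.9 and 15.2 to 7.46 CPM (-1.23 ± 0.16).

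Of 13 BMP signalling genes, 8 were lower and 2 higher (median -0.68), again beside 26.4% and 27.1% of all genes tested. Without a filter on low counts 5 were lower and 1 higher, beside 1856 and 1696 of all 20190 genes. The 2 higher genes, the ligand genes *Bmp4* and *Bmp7*, were named after their values were seen. *Bmp4* rose from 28.0 and 26.0 to 53.9 CPM (0.82 ± 0.11) and *Bmp7* from 30.9 and 28.4 to 43.3 CPM (0.37 ± 0.12). *Bambi* fell from 183 and 170 to 59.8 CPM (-1.73 ± 0.11), the antagonist gene *Grem1* from 33.9 and 34.0 to 13.4 CPM (-1.52 ± 0.14), the receptor gene *Bmpr1b* from 11.7 and 12.1 to 5.58 CPM (-1.27 ± 0.17) and the target *Id1* from 2069 and 2594 to 1212 CPM (-1.12 ± 0.15). *Id1* did not pass edgeR's test without a filter on low counts (adjusted p = 0.0525) and passed with DESeq2 (adjusted p = 0.00159).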

How the data were processed

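UMI counts per gene and cell were deposited by the authors as 8 filtered 10x matrices, made with Cell Ranger on a modified mm10 genome. The matrix headers name version 3.0.2 for 5 sorted libraries and 6.0.1 for E16.5 distal, and none for whole limb. The reporting summary of the paper names another version for the single-cell data, different from both. Counts were used as deposited. Cells with at least 3000 UMIs and at most 10% mitochondrial UMIs were kept, and doublets were not removed outside the stated alternative. Levels are UMIs summed per library per 1000000 (CPM), and shares, co-detection and cell classes' shares were taken after thinning each cell to 3000 UMIs, while classes were called on all UMIs from 3 or more markers. Intervals (exact Poisson, exact Clopper-Pearson binomial and conditional binomial, 95%) cover counting error only. Stages and segments have 1 library each and no test. For E11.5, UMIs were summed per library and tested with edgeR 4.0.16 in R 4.3.3 (quasi-likelihood, TMM, filter on low counts), with DESeq2 1.42.0 as an alternative. Scripts used Python 3.11.15 and were tested on simulated data.

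The members and lists were chosen with earlier results of these data known. Named were all members, up to 4 called genes of each list with the largest fold changes among those of at least 10 CPM, and the 4 genes most like each member over libraries and over cells, leaving out mitochondrial, haemoglobin and Y-linked genes and *Xist*. Alternatives were the cell filters, thinning, cell classes, likely doublets, scaling, test, count filter and leaving out a whole limb library.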

Additional observations from a re-analysis of the deposited data

How the results depend on the processing

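Each library of the sorted groups is a single one, so depth and counting error set the precision and no replicate spread could be given. No paired analysis was possible because the groups compared share fewer than 2 replicate numbers. No log2 ratio of a member at least 2-fold in size turned its direction under any setting. Leaving out a whole limb library gave whole limb over E11.5 log2 ratios of 3.35 to 3.64 for *Msx1*, 3.47 to 3.62 for *Msx2*, 3.57 to 3.62 for *Lhx2*, 3.54 to 3.57 for *Lhx9* and 3.44 to 3.70 for *Lmo2*, and a median co-detection of 1.49 to 1.497. It left no residual degrees of freedom, and 397 to 437 genes were then at least 2-fold lower and 1546 to 1708 higher in the sorted library.

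The whole limb over E11.5 ratios of *Msx1*, *Msx2*, *Lhx2*, *Lhx9* and *Lmo2* were 3.93, 3.999, 3.56, 4.003 and 3.35 with thinned cells and, without sorted cells lacking tdTomato UMIs (chosen after seeing the data), 4.003, 3.90, 3.80, 3.89 and 3.76. Without likely doublets they were 4.15, 4.07, 3.67 and 3.81 for all but *Lmo2*, and with TMM sizes 3.74, 3.79, 3.75 and 3.77 for all but *Msx1*. *Lhx2* and *Lhx9* had 3.56 and 3.52 at a mitochondrial limit of 5%, and 3.69 and 3.65 without the non-mesenchymal classes. TMM sizes moved the median log2 ratio of all genes by 0.18 and 0.21 in this contrast, 0.24 for E16.5 proximal over E14.5 and -0.18 between segments.

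For E13.5 over E11.5, *Msx1* had -2.53 without likely doublets and -2.59 without cells lacking tdTomato UMIs, *Lhx9* -0.19 and -0.082. Thinned, *Lhx9* had 0.036 and *Lhx2* 0.28. For E16.5 proximal over E14.5, leaving out the non-mesenchymal classes gave -4.31 (*Msx1*), -5.27 (*Msx2*), -2.21 (*Lhx2*) and 0.35 (*Lmo2*). TMM sizes gave -4.24 (*Msx1*), -1.77 (*Lhx2*), -3.73 (*Lhx9*) and 0.29 (*Lmo2*), thinning -1.86 (*Lhx2*), -3.78 (*Lhx9*) and 0.22 (*Lmo2*), and leaving out likely doublets 0.23 (*Lmo2*). For E16.5 distal over proximal, leaving out these classes gave 2.89 (*Msx1*), 2.98 (*Msx2*), 1.58 (*Lhx2*) and -0.55 (*Lmo2*), TMM sizes 2.86 (*Msx1*), 1.25 (*Lhx2*) and -0.57 (*Lmo2*), and *Lhx2* had 1.20 thinned and 1.28 without likely doublets.

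The median co-detection of the 10 pairs was 1.36 without thinning, 1.38 in cells thinned to 5000 UMIs and 1.43 without the non-mesenchymal classes. DESeq2 called 2836 genes lower and 2047 higher in sorted cells. In the lists it called 1 LIM partner and 1 BMP gene higher and 1 other LIM-homeodomain gene lower. Without a filter on low counts edgeR called 1856 genes lower and 1696 higher, against 3992 and 4102 with it. In the lists it then called 2 LIM partners lower and 1 higher, 1 LIM-homeodomain gene lower, 4 FGF genes higher, and 5 BMP genes lower and 1 higher. With all filtered cells summed, 1 LIM partner and 1 distal-less or paired-type gene were higher. The causes of these shifts were not tested.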
